A study of Zeugodacus cucurbitae with 52 samples.

Results

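Homeobox, homeotic and segmentation genes of the melon fly Zeugodacus cucurbitae were taken by product name, as every gene whose description holds the word homeobox, homeotic or segmentation. This gave 92 of the 18241 genes in the table, of which 13649 carry a description. The rule itself uses names and no measured value, though the group was picked with earlier results of these data known. By name they were sorted into 8 Hox genes, 4 Hox-like genes, 13 genes of segmentation and of the body ends, 10 cofactors and chromatin proteins, 6 genes known only by a number, 9 genes named for muscle, gut or blood, and 42 genes named for nerve, eye or appendage. RNA was sequenced from pools of whole, untreated flies at 13 stages, with 4 libraries per stage, named replicates 1 to 4. The stages were eggs less than 8 h old (100 per library), larvae 1 d (100), 3 d (20) and 7 d (10) old, pupae 1 d, 5 d and 9 d old (3), and virgin females and virgin males 1 d, 5 d and 9 d old (3). The labels name no strain, mutation or agent. Stages are written below as 1-day larvae, 9-day females and so on. Levels are in TPM, the share of a gene among all transcripts after correction for gene length, scaled to the same total in every library.

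Homeobox genes encode transcription factors that bind DNA through the homeodomain. In insects the Hox genes give each body segment its identity along the head-to-tail axis. Before them in the cascade, maternal, gap and pair-rule genes cut the embryo into segments, and segment polarity genes such as engrailed then pattern each segment. Polycomb and Trithorax proteins keep Hox genes off or on in later cells, and many homeobox genes are used again when appendages, eyes and nerve cells form. The roles given below are those known from Drosophila.

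The stage labels were checked against marker genes. The summed level of 3 protamine genes, sperm proteins, was 961 to 1892 TPM per library in adult males and 0.48 TPM or less in adult females. In pupae, whose labels give no sex, it was 0.37 to 1.64 TPM on day 1, 5.05 to 760.1 TPM on day 5 and 479.4 to 1407 TPM on day 9. The share of males in each pupal pool was not tested. The sum of 17 genes named vitellogenin, yolk proteins, was 5876 TPM or more in each 5-day and 9-day female library and 652.5 TPM or less in each library of males and of 1-day females. The eggs held larval cuticle protein RNA at 25890 to 30970 TPM in sum, beside 20330 to 41570 TPM in 1-day larvae. How far the embryos of each egg pool had developed was not tested. Because whole bodies were used, fewer cells of a type and less RNA per cell cannot be told apart. The mean length of the reads fell into 2 classes that coincide with stage except within 7-day larvae. For comparisons across the classes (egg with 1-day larva or 9-day female, and 1-day with 9-day adults) class and stage therefore cannot be told apart. A fit with a class term takes that term from the 7-day larvae alone. Some members were near 0 TPM there, such as homeobox protein 4 (0.0175 TPM) and fushi tarazu (0.005 TPM). This fit therefore cannot test class in eggs or adults.

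Many of the members had their highest level in the egg. Of the 83 members that exceeded 1 TPM in some stage, 39 (47.0%) peaked in eggs, against 1185 of 12432 described genes (9.53%). The figures were 37 of 83 and 8.86% when libraries were scaled by median-of-ratios size factors. No member above 1 TPM peaked in a larval stage as the values were deposited, whereas 8 did after scaling (1 in 1-day and 7 in 3-day larvae). Of described genes 4.3%, 2.89% and 2.31% peaked in 1-day, 3-day and 7-day larvae as deposited. After scaling 7.75%, 7.11% and 6.95% did. The median member was at 4.58 TPM in eggs, 1.06 TPM in 1-day larvae, 0.305 TPM in 7-day larvae and 1.59 TPM in 1-day pupae. The median described gene was at 9.24, 5.09, 3.22 and 7.935 TPM in the same stages, so it too was lowest in 7-day larvae among these. Means above 0.1 TPM were reached by 89 of 92 members in eggs, by 64 in 7-day larvae, and by 73 to 83 in each of the other stages. These are 96.7%, 69.6% and 79.3% to 90.2% of members, beside 86.4%, 78.5% and 80.1% to 89.5% of described genes. Another 14 of the 83 members (16.9%) peaked in 9-day females, below the 32.5% of described genes that did so. After scaling 7 did (8.43%, beside 20.2% of described genes). In 9-day males 4 members peaked (4.82%, beside 12.6% of described genes).

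**Figure D1:**
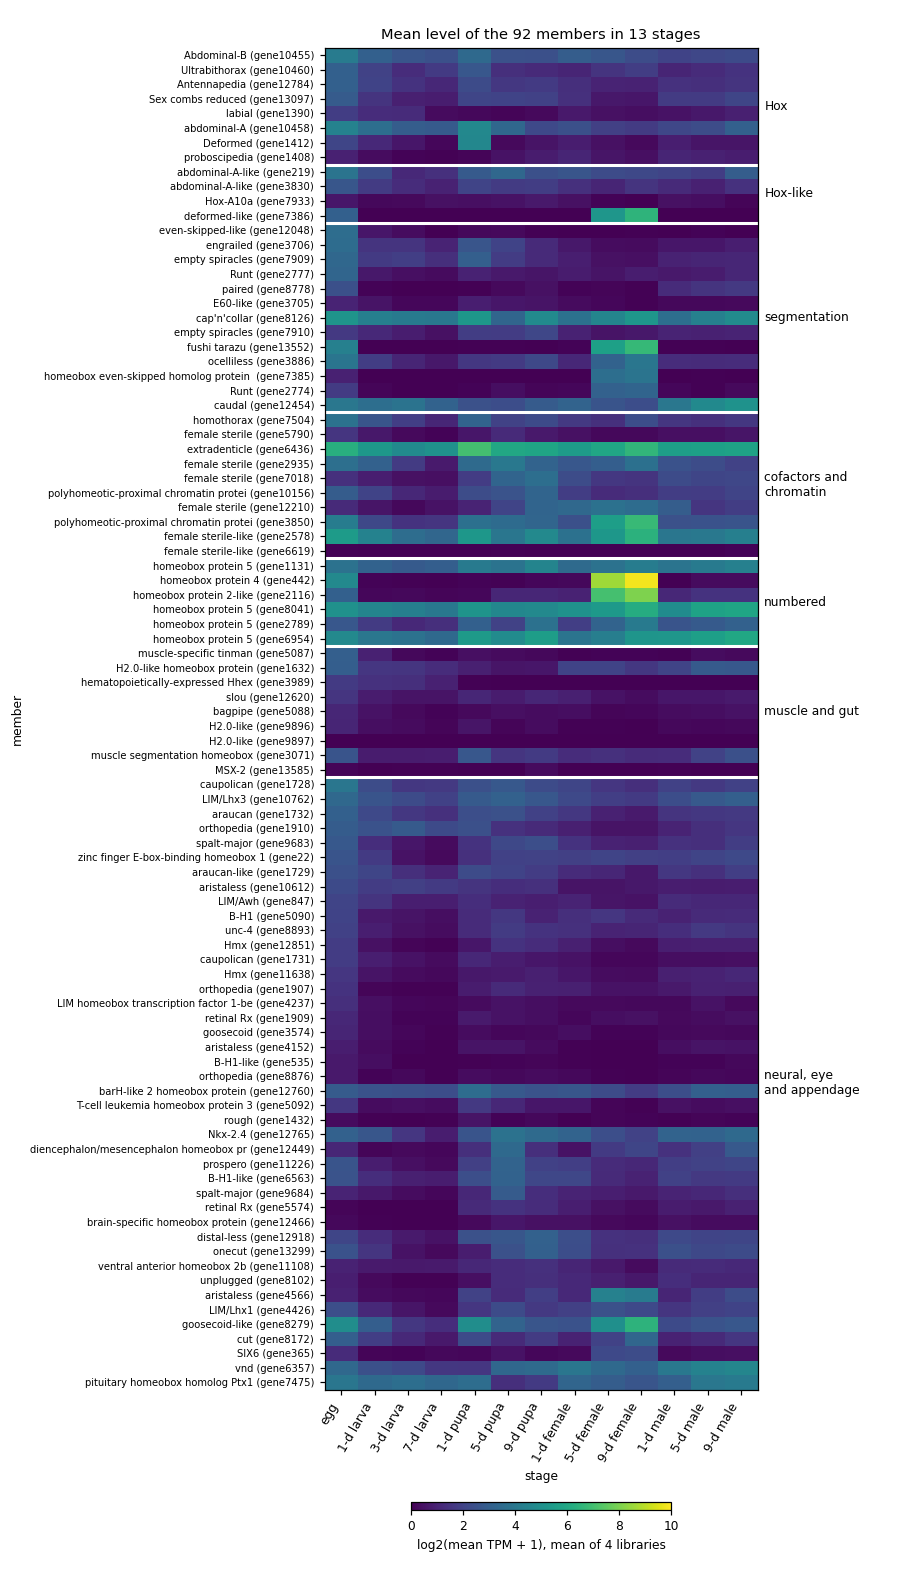
Heat map of log2(mean TPM + 1), mean of 4 libraries, for the 92 members (rows, grouped by role and ordered by the stage of the highest mean) in 13 stages (columns). Many rows are brightest in the egg and dark in the 7-day larva, and a small group, led by homeobox protein 4 at 896 TPM, is brightest in 5-day and 9-day females.

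Stages were compared by limma on log2(TPM + 1), and a call, higher or lower, required an adjusted p under 0.05 and a log2 fold change beyond 2. A gene at or below 3 TPM in both stages cannot pass that size on this scale, and 29 of the 92 members had no stage mean above 3 TPM. Of the members, 90 passed the filter on low values. The H2.0-like gene9897 and the female sterile-like gene6619 did not, and neither had a stage mean above 0.1 TPM. Each fold change is a log2 difference followed by its standard error.

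Of the 8 Hox genes, labial, Sex combs reduced, Antennapedia, Ultrabithorax and Abdominal-B had their highest mean in the egg. In TPM as deposited, the last 4 of these, together with abdominal-A, were high again in the 1-day pupa. abdominal-A (gene10458), which specifies abdominal segments, was at 18.6, 22.4, 20.3 and 21.9 TPM in the 4 egg libraries and at 24.9, 23.6, 24.7 and 24.1 TPM in the 1-day pupae. It lay between 5.42 and 7.61 TPM in 7-day larvae, apart from both. Abdominal-B (gene10455), which specifies the hindmost segments, was at 16.6, 17.0, 15.1 and 18.6 TPM in eggs, then 10.4, 9.48, 9.34 and 10.1 TPM in 1-day pupae, against a mean of 4.37 TPM in 7-day larvae. Ultrabithorax (gene10460), which distinguishes the haltere-bearing segment, followed the same course, at 7.38 TPM in eggs, 2.23 TPM in 7-day larvae and 5.53 TPM in 1-day pupae. Its 4 libraries of 1-day pupae (5.55, 6.01, 4.80 and 5.77 TPM) lay above every 7-day larva (1.83 to 2.73 TPM).

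Antennapedia (gene12784), a gene of thoracic identity, and Sex combs reduced (gene13097), a gene of the labial and first thoracic segments, were the next Hox genes of this kind. Antennapedia was at 7.75, 7.28, 6.70 and 7.73 TPM in eggs, a mean of 1.14 TPM in 7-day larvae and 3.92 TPM in 1-day pupae. Sex combs reduced was at 6.09, 6.48, 5.62 and 7.16 TPM in eggs, 0.728 TPM in 7-day larvae and 3.32 TPM in 1-day pupae. From the 7-day larva to the 1-day pupa these 5 genes differed by log2 fold changes of 1.01 to 1.85 (adjusted p from 3.42e-18 to 6.43e-11), all below the size needed for a call. These changes are of TPM as deposited, at a step where the median change over all genes was 0.67, or 0.03 after scaling. Of the 83 members above 1 TPM, 7 (8.43%) peaked in 1-day pupae as deposited and 2 (2.41%) after scaling. Both shares were below those of described genes, 15.6% and 9.97%.

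labial (gene1390), which acts in the head and the midgut, had no pupal maximum. It was at 2.92, 2.21, 1.99 and 2.87 TPM in eggs and averaged 1.38 TPM in 3-day larvae, 0.235 TPM in 7-day larvae and 0.150 TPM in 1-day pupae. proboscipedia (gene1408), a gene of the adult mouthparts, was at 0.885 TPM in eggs, 0.0300 TPM in 7-day larvae and 0.0975 TPM in 1-day pupae. It then stood at 0.703 TPM in 9-day pupae, 1.08 TPM in 1-day females and 1.04 TPM in 1-day males.

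Deformed (gene1412), a gene of the maxillary and mandibular segments, had the least even values. Its eggs were at 3.31, 3.53, 2.44 and 3.97 TPM, but its 1-day pupae were at 1.02, 91.9, 1.04 and 0.59 TPM, so that replicate 2 alone set the stage mean of 23.6 TPM. Its calls at pupariation and from 1-day to 5-day pupae rest on that library. Without it the log2 fold changes were 0.73 and -0.64, which do not pass.

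**Figure D2:**
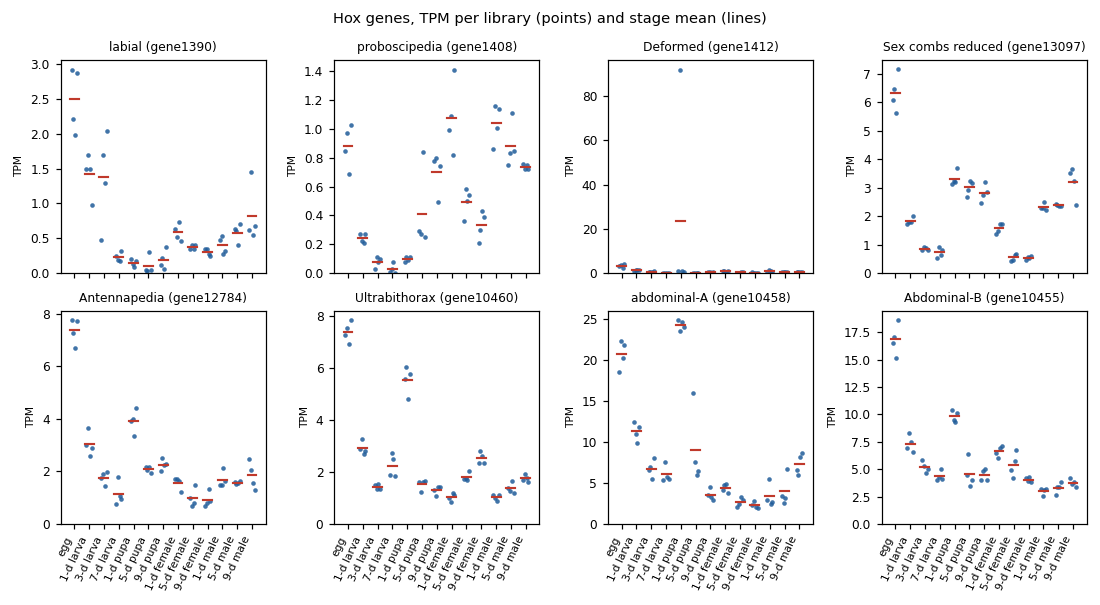
TPM of the 8 Hox genes in each library (points, 4 per stage) and the mean of each stage (lines), over 13 stages, each panel with its own linear axis. Without scaling between libraries, the 5 genes from Sex combs reduced to Abdominal-B are high in eggs and again in 1-day pupae. The gene labial has its highest means in the egg and the 1-day and 3-day larvae, and a single pupal library lifts Deformed to 91.9 TPM.

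At hatching no member rose and 11 of 90 members (12.2%) fell, beside 2.64% of all 17097 genes tested that rose and 4.45% that fell. Of these 11, 6 belong to the 13 segmentation genes. At any size of change, 79 of 90 members were lower in 1-day larvae at an adjusted p under 0.05 and 0 were higher, where 46.6% of all genes were lower. With median-of-ratios scaling the count was 55 lower (61.1%, beside 27.7% of all genes) and 0 higher. Under that scaling 6 members kept the size for a call, and engrailed, ocelliless, tinman, paired and polyhomeotic-proximal gene3850 were at -1.93 to -1.48. The median log2 difference was -0.91 over the members and -0.35 over all genes, or -0.42 and -0.04 after scaling.

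The largest fall among the segmentation genes was that of fushi tarazu (gene13552), a pair-rule gene that sits within the Hox complex. It was at 25.0, 17.3, 21.3 and 13.9 TPM in eggs and between 0 and 0.03 TPM in 1-day larvae, with no overlap (log2 fold change -4.31 ± 0.117, adjusted p = 1.50e-30). The even-skipped-like gene12048, which carries the name of a primary pair-rule gene, was at 14.3, 9.11, 12.1 and 7.88 TPM in eggs. It fell to 0.33 to 0.81 TPM in 1-day larvae (-2.92 ± 0.105, adjusted p = 3.40e-26) and did not exceed a stage mean of 0.253 TPM afterwards.

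Runt gene2777, named for a pair-rule regulator, was at 10.8, 8.93, 6.38 and 8.06 TPM in eggs and 0.50 to 0.65 TPM in 1-day larvae (-2.58 ± 0.154, adjusted p = 2.01e-18). paired (gene8778), another pair-rule gene, was at 9.34, 3.08, 2.14 and 3.21 TPM in eggs and at most 0.08 TPM in 1-day larvae (-2.19 ± 0.165, adjusted p = 2.61e-15). Egg replicate 1 held most of its signal, and without that library the change was -1.83, below the size for a call.

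engrailed (gene3706), the segment polarity gene of posterior compartments, was at 10.5, 10.8, 9.19 and 12.3 TPM in eggs against 1.51 to 2.07 TPM in 1-day larvae (-2.02 ± 0.112, adjusted p = 1.51e-19). It was at 5.30, 4.55, 5.39 and 5.55 TPM in 1-day pupae, all above the 0.76 to 1.46 TPM of 7-day larvae. ocelliless (gene3886), which patterns the head, was at 14.3, 12.7, 12.5 and 15.2 TPM in eggs and 1.94 to 2.91 TPM in 1-day larvae (-2.06 ± 0.0995, adjusted p = 1.53e-21). The calls of engrailed and ocelliless lie close to the size threshold. Without 1-day larva replicate 4 they were -1.96 and -1.97, and engrailed was -1.96 without egg replicate 4, all below the size for a call. With a read-length term ocelliless was at -1.98, also short of a call.

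**Figure D3:**
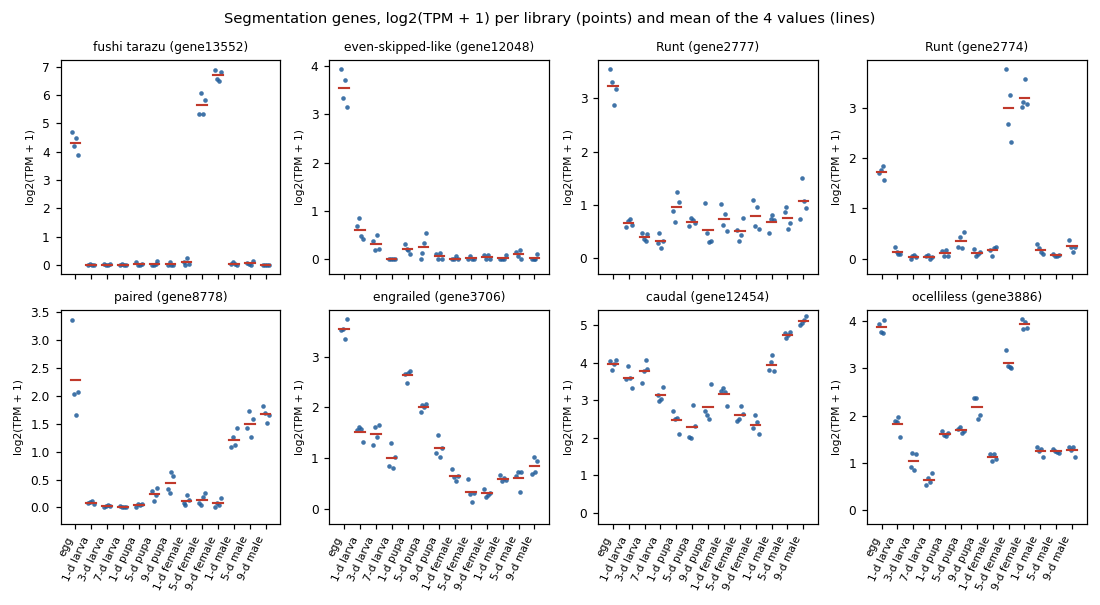
log2(TPM + 1) of 8 segmentation genes in each library (points, 4 per stage) and the mean of the 4 values (lines), over 13 stages, each panel with its own axis. All 8 genes are present in eggs, fushi tarazu, Runt gene2774 and ocelliless are high again in 5-day and 9-day females, paired is present again in males, and caudal is highest in 9-day males.

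The remaining falls at hatching were those of homeobox protein 4 (gene442, -4.54 ± 0.140), homeobox protein 2-like (gene2116, -2.80 ± 0.181), deformed-like (gene7386), polyhomeotic-proximal chromatin protein (gene3850, -2.07 ± 0.104) and muscle-specific tinman (gene5087, -2.06 ± 0.114). All had adjusted p of 3.03e-14 or less. tinman, which specifies heart and visceral muscle, was at 9.13, 6.27, 4.99 and 8.14 TPM in eggs and 0.76 to 1.03 TPM in 1-day larvae. Its change was -1.95 without egg replicate 1 and -1.996 without egg replicate 4, and that of gene3850 was -1.98 without 1-day larva replicate 4, each short of a call. tinman stayed at stage means of 0.338 TPM or less from the 3-day larva on. deformed-like was at 6.09, 11.4, 5.93 and 6.19 TPM in eggs and is listed at 0 in all 12 larval libraries.

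Between the 1-day and the 7-day larva no member rose and 1 of 90 fell (1.11%), beside 2.28% and 4.38% of all genes. With no limit on size 53 members were lower in 7-day larvae and 0 higher, where 39.6% of all genes were lower. The member called is 1 of 6 genes named female sterile, after a bromodomain protein needed in the mother for homeotic gene expression. This gene2935 was at 9.58, 7.88, 7.49 and 5.44 TPM in 1-day larvae and at 0.47, 0.85, 0.75 and 0.60 TPM in 7-day larvae (-2.35 ± 0.131, adjusted p = 3.56e-19).

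At pupariation, from the 7-day larva to the 1-day pupa, 6 of 90 members rose (6.67%) and none fell, beside 12.2% and 4.95% of all genes. With no limit on size 66 members were higher, where 55.8% of all genes were. The values of all genes shifted here by a median of 0.67, and by 0.03 after scaling. The members shifted by 0.86, and by 0.21 after scaling, under which 1 member was called and 39 (43.3%, beside 28.3% of all genes) were higher at any size of change. The order of the 2 shares depended on the pseudocount: with 0.1 in place of 1, 40.0% of the members and 23.7% of all genes rose past the size for a call.

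The member that kept its call under scaling was goosecoid-like (gene8279), named for a regulator of the foregut and head. It was at 26.0, 37.7, 27.1 and 25.4 TPM in 1-day pupae and 1.03 to 2.43 TPM in 7-day larvae (3.61 ± 0.171, adjusted p = 2.34e-22). Female sterile gene2935 returned to 9.75, 10.6, 11.04 and 9.15 TPM (2.74 ± 0.131, adjusted p = 3.19e-22). The Polycomb group gene polyhomeotic-proximal (gene3850) rose from a mean of 1.90 to 11.9 TPM (2.17 ± 0.104, adjusted p = 2.96e-22).

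homothorax (gene7504), a Hox cofactor that carries extradenticle into the nucleus, was at 7.14, 8.26, 8.99 and 7.53 TPM in 1-day pupae and 0.95 to 1.34 TPM in 7-day larvae (2.09 ± 0.158, adjusted p = 9.02e-16). Its partner extradenticle (gene6436) was the most abundant member in 9 of the 13 stages. It was at 141, 127, 124 and 121 TPM in 1-day pupae and 27.7 to 37.7 TPM in 7-day larvae, just under the size for a call (1.98 ± 0.0694, adjusted p = 7.33e-27). The last gene called, homeobox protein 5 (gene6954), was at 38.5, 43.9, 44.3 and 44.6 TPM in 1-day pupae and 6.94 to 12.6 TPM in 7-day larvae (2.08 ± 0.203, adjusted p = 2.31e-12), and its change was 0.73 after scaling and 1.95 without 7-day larva replicate 1.

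Some members went the other way at this step. The gene named for hematopoietically-expressed Hhex (gene3989), named here after its values were seen, was at 2.32, 1.59, 2.86 and 2.33 TPM in eggs and 0.60 to 1.12 TPM in 7-day larvae. It was at 0 to 0.13 TPM in 1-day pupae and at 0.0250 TPM or less in every later stage mean (-0.85 ± 0.107, adjusted p = 2.37e-09, too small for a call).

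Within the pupa, no member rose from day 1 to day 5 and 3 of 90 fell (3.33%), beside 7.17% and 4.98% of all genes. With median-of-ratios scaling the split was 2 higher and 0 lower. pituitary homeobox homolog Ptx1 (gene7475) was at 10.5, 12.7, 11.7 and 8.36 TPM on day 1 and 1.58, 1.26, 1.85 and 1.54 TPM on day 5 (-2.20 ± 0.136, adjusted p = 3.37e-18). After scaling the change of Ptx1 was -1.69, below the size for a call. cap'n'collar (gene8126), a leucine zipper protein that patterns the head, was at 32.3, 44.3, 37.4 and 37.8 TPM on day 1 and 7.79, 10.4, 8.75 and 7.41 TPM on day 5 (-2.02 ± 0.156, adjusted p = 4.43e-15). Its change was -1.49 after scaling and -1.99 to -1.95 without 1-day pupa replicate 2 or 5-day pupa replicate 1 or 4, and its level was back at 26.3 TPM on day 9. Deformed, the other gene called, rests on replicate 2 as described above.

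The 42 genes named for nerve, eye or appendage went both ways from day 1 to day 5. At any size of change 15 were higher and 10 lower, and over all members 22 were higher and 27 lower, beside 25.5% and 37.4% of all genes. The next genes were named after their values were seen. spalt-major gene9684, whose name is that of a zinc finger regulator of appendages and photoreceptors, was at 6.32, 6.73, 6.03 and 6.04 TPM on day 5, a mean of 1.16 TPM on day 1 and 1.45 TPM on day 9. prospero (gene11226), which directs the fate of nerve cell progeny, was at 8.51, 7.37, 8.63 and 8.11 TPM on day 5, 2.69 TPM on day 1 and 2.85 TPM on day 9. Their differences between day 1 and day 5 (1.75 ± 0.105 and 1.31 ± 0.0882, adjusted p of 1.12e-18 and 5.47e-17) are below the size for a call. The adjacent copy spalt-major gene9683 had a different course, at 5.82 TPM in eggs, 3.51 TPM on pupal day 5 and 4.34 TPM on day 9.

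From the 5-day to the 9-day pupa no member was called in either direction by limma, beside 4.22% of all genes higher and 2.84% lower. At any size of change 18 of 90 members were higher and 17 lower, beside 4281 and 4797 of the 17097 genes tested. An unadjusted p under 0.05 was found for 39 members. Counts at an unadjusted p, here and below, have no share of all genes beside them and do not set the members apart. At eclosion, pupae of unstated sex were set beside adults of a single sex, so sex and stage cannot be told apart there. No member was called between the 9-day pupa and the 1-day female, beside 2.66% of all genes higher in the female and 6.14% lower. At any size of change 7 members were higher in the female and 33 lower, beside 2299 and 6300 of 17097 genes. In this comparison 47 members had an unadjusted p under 0.05. Between the 9-day pupa and the 1-day male 0 members were called, beside 2.66% of all genes higher in the male and 2.42% lower. At any size of change 7 members were higher in the male and 28 lower, beside 2520 and 4275 of 17097 genes. Here 44 members had an unadjusted p under 0.05.

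From day 1 to day 9 of adult life, 14 of 90 members rose in females (15.6%) and none fell, beside 15.7% of all genes that rose and 2.02% that fell. The share that rose was that of the whole table. Smaller differences ran the other way: counted at any size, 25 members were higher in 9-day females and 40 (44.4%) lower, beside 38.4% and 19.3% of all genes. With median-of-ratios scaling 9 members rose and 1 fell. At any size 15 members were then higher and 52 lower, beside 4117 and 6501 of 17097 genes. No share of all genes stands beside the counts of calls under scaling, in this or the other comparisons. Those counts of calls do not set the members apart. The median log2 difference was -0.21 over the members and 0.05 over all genes, or -0.5 and -0.16 after scaling. In males no member was called, beside 2.28% of all genes higher on day 9 and 1.12% lower. At any size of change 28 members were higher in 9-day males, where 36.5% of all genes were, and 3 were lower. After scaling this became 11 higher and 8 lower (12.2% and 8.89%, beside 14.0% and 12.4% of all genes). In males 40 members had an unadjusted p under 0.05. Among 1-day adults no member was called between the sexes, beside 0.117% of all genes higher in females and 4.52% higher in males, with 14 members at an unadjusted p under 0.05. Without the size limit 3 members were higher in females and 6 in males, beside 1.07% and 13% of all genes.

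Among the 14 genes that rose in females were the most abundant members of the whole series, homeobox protein 4 and homeobox protein 2-like, while SIX6 reached a mean of 4.06 TPM. homeobox protein 4 (gene442), which has no role given by its name, was at 0.06 to 0.29 TPM in 1-day females. It was at 403, 472, 299.7 and 358 TPM in 5-day females and 997, 890.3, 779.5 and 918 TPM in 9-day females (9.61 ± 0.140, adjusted p = 2.60e-41). In eggs it was at 19.4, 22.4, 17.2 and 40.6 TPM. In larvae, pupae and males its stage means were 0.233 TPM or less. homeobox protein 2-like (gene2116) was at 0.69 to 1.36 TPM in 1-day females, at 139, 155, 104 and 131 TPM on day 5 and at 284, 274, 217 and 282 TPM on day 9 (7.11 ± 0.181, adjusted p = 2.64e-32). Its eggs were at 4.72, 7.90, 4.27 and 13.03 TPM, and its stage means in males were 1.19 to 1.76 TPM.

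fushi tarazu, which fell at hatching, belonged to the same set. It was at 0 to 0.19 TPM in 1-day females, 39.7, 66.4, 39.2 and 55.7 TPM in 5-day females and 119, 94.9, 90.1 and 113 TPM in 9-day females (6.60 ± 0.117, adjusted p = 4.62e-38). In 9-day males it is listed at 0 in all 4 libraries. Its mean in 9-day females, 104 TPM, was above that in eggs, 19.4 TPM (log2 of egg over female -2.39 ± 0.117, adjusted p = 6.97e-22, or -1.76 after scaling).

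The neighbouring genes deformed-like (gene7386) and homeobox even-skipped homolog protein 1-like (gene7385), with no protein-coding gene between them in the RefSeq order, were found in the same stages. deformed-like was at 11.4, 55.7, 45.1 and 36.1 TPM in 5-day females and 102, 125, 40.7 and 94.7 TPM in 9-day females, and it is listed at 0 in 9-day males. gene7385 was at 7.28, 19.8, 7.18 and 10.1 TPM in 5-day females and 10.4, 21.6, 10.6 and 10.7 TPM in 9-day females, and it is listed at 0 in 1-day females and 9-day males. It was at 0.65, 1.55, 0.80 and 0.63 TPM in eggs. Replicate 2 had the highest value of both genes in each of these 3 stages, and the 2 names, after unlike Drosophila genes, are those of the annotation.

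Runt gene2774, which lies 2 genes from Runt gene2777, was also of the female set while its neighbour was not. It was at 12.6, 5.39, 8.49 and 4.01 TPM in 5-day females and 7.14, 7.66, 10.97 and 7.46 TPM in 9-day females, against 0.03 to 0.18 TPM in 1-day females (3.04 ± 0.146, adjusted p = 2.02e-22). Its eggs were at 2.24, 2.39, 2.57 and 1.97 TPM. Runt gene2777 had a mean of 0.758 TPM in 9-day females and 8.54 TPM in eggs. ocelliless was at 15.7, 13.3, 14.8 and 13.4 TPM in 9-day females, close to its egg values and above the 1.05 to 1.28 TPM of 1-day females (2.81 ± 0.0995, adjusted p = 3.89e-27).

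Among the chromatin proteins, polyhomeotic-proximal gene3850 was at 50.8, 43.3, 40.4 and 54.3 TPM in 5-day females and 112, 108, 99.5 and 98.4 TPM in 9-day females, against 3.99 to 5.16 TPM in 1-day females (4.28 ± 0.104, adjusted p = 4.30e-33). The second gene of this name, gene10156, was at 2.56 TPM in 1-day and 1.52 TPM in 9-day females. Female sterile-like gene2578 was at 87.1, 85.2, 83.3 and 87.8 TPM in 9-day females and 11.7 to 13.3 TPM in 1-day females (2.72 ± 0.0906, adjusted p = 4.94e-28). goosecoid-like was at 32.0, 31.0, 25.6 and 32.3 TPM on day 5 and 92.2, 97.9, 76.8 and 79.1 TPM on day 9, against 3.40 to 6.13 TPM on day 1 (3.94 ± 0.171, adjusted p = 5.61e-24).

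The other rises were those of aristaless gene4566 (3.02 ± 0.143), cut (gene8172, 2.32 ± 0.130), homeobox protein 5 gene2789 (2.23 ± 0.120) and SIX6 (gene365, 2.05 ± 0.138), with adjusted p of 2.23e-17 or less. aristaless is named for an appendage gene, cut for a gene of sense organs and ovarian follicle cells, and SIX6 for an eye gene of vertebrates. aristaless gene4566 was at 16.6, 16.9, 16.7 and 17.0 TPM in 9-day females, and the other genes named aristaless, gene10612 and gene4152, were at 0.560 TPM and 0 TPM there. SIX6 lost its call with a read-length term (1.90), without 1-day female replicate 2 (1.995) and without 9-day female replicate 3 or 4 (1.96 and 1.91). After scaling, the changes of SIX6, cut, gene2789, gene2578 and ocelliless were 1.17 to 1.81, below the size for a call.

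Genes named for egg shell proteins differed widely among these same libraries. The sum of 5 genes named vitelline membrane, which was also 2384 to 2993 TPM in 9-day pupae and 160.9 to 2684 TPM in 3-day larvae, was 38120, 22670, 13540 and 38.4 TPM in the 4 libraries of 5-day females and 4423, 67.8, 12220 and 14.6 TPM in those of 9-day females. The sum of 8 chorion genes was 2433, 4760, 2716 and 293 TPM and 3969, 592, 667 and 545 TPM in the same libraries. In the 3 libraries with vitelline membrane sums under 100 TPM, homeobox protein 4 was at 358, 890.3 and 918 TPM and fushi tarazu at 55.7, 94.9 and 113 TPM, within the range of the other libraries of their stage. Other genes of the female set, chosen after their values were seen, were not alike in this. At both ages the library with the highest vitelline membrane sum had the highest value of Runt gene2774 and the lowest of deformed-like. Runt gene2774 was lowest among 5-day females in the library with the lowest sum. In 1-day females the vitelline membrane sum was 5.49 to 7.41 TPM and the chorion sum 46.5 to 55.9 TPM. The part of these shell genes in the members' values was not tested.

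**Figure D4:**
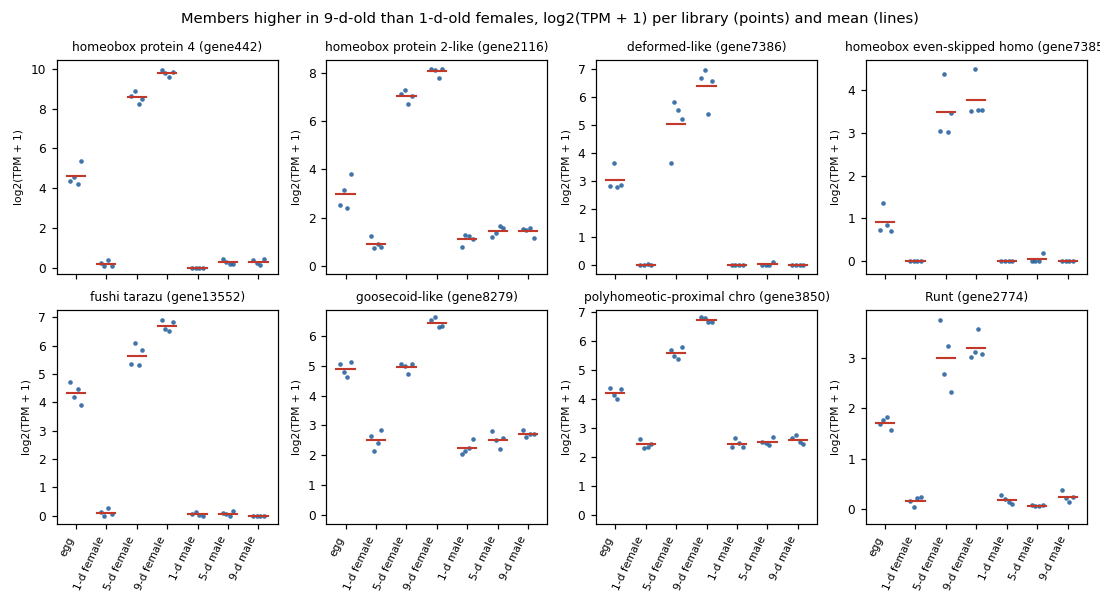
log2(TPM + 1) of 8 members that rose in females, in each library (points, 4 per stage) of eggs, females and males, with the mean of the 4 values (lines), each panel with its own axis. In each panel all libraries of 5-day and 9-day females lie above those of 1-day females and of males, and except in the panel of goosecoid-like the eggs lie below the 5-day females.

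On day 9, 10 of 90 members were higher in females than in males (11.1%) and 1 was lower (1.11%), beside 10.1% and 6.81% of all genes. With median-of-ratios scaling the split was 8 and 3. The 10 were homeobox protein 4, fushi tarazu, homeobox protein 2-like, deformed-like, polyhomeotic-proximal gene3850, gene7385, goosecoid-like, Runt gene2774, ocelliless and female sterile-like gene2578. At any size of change, 45 members were higher in males, where 35.1% of all genes were. The test of whether the change from day 1 to day 9 differed between the sexes called the same 10 members, all with the larger rise in females (11.1%), and none in the other direction, beside 11.6% and 2.16% of all genes. With scaling that split was 8 and 5.

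caudal (gene12454), which patterns the posterior embryo and acts in the gut, was the member higher in males. It was at 31.2, 32.3, 34.3 and 36.9 TPM in 9-day males and 3.77, 5.13, 4.38 and 3.30 TPM in 9-day females (log2 of female over male -2.76 ± 0.169, adjusted p = 1.29e-18). In 1-day males it was at 13.1, 15.2, 17.4 and 12.8 TPM, so its male libraries of day 1 and day 9 did not overlap (1.16 ± 0.169, adjusted p = 3.68e-07, too small for a call). In eggs it was at 15.5, 12.95, 14.7 and 15.8 TPM.

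paired, named here after its values were seen, was also present in males and nearly absent in females. It was at 1.12, 1.39, 1.16 and 1.67 TPM in 1-day males and 2.52, 2.24, 1.85 and 2.15 TPM in 9-day males, against 0.03 to 0.16 TPM and 0 to 0.12 TPM in females of the same ages. The groups did not overlap on either day, and the differences of -1.10 ± 0.165 and -1.60 ± 0.165 (female over male, adjusted p of 6.52e-07 and 1.31e-11) are below the size for a call. Of the Hox genes, Sex combs reduced stood at 3.20 TPM in 9-day males and 0.535 TPM in 9-day females (-1.44 ± 0.0839, adjusted p = 2.17e-19), and Abdominal-B at 6.65 TPM in 1-day females and 3.03 TPM in 1-day males (0.93 ± 0.112, adjusted p = 4.71e-09), again without overlap and without a call. Among the genes named female sterile, gene12210 was at 12.01, 10.4, 10.6 and 8.77 TPM in 9-day females and 1.83, 4.50, 2.46 and 1.12 TPM in 9-day males (1.80 ± 0.164, adjusted p = 3.71e-13).

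Between eggs and 9-day females, the 2 ends of the cycle, members were called in both directions, above the share of all genes only on the side of the eggs. Of 90 members 12 were higher in eggs (13.3%) and 8 higher in 9-day females (8.89%), beside 6.93% and 10.0% of all genes. With scaling the split was 14 and 5. With no limit on size 61 members were higher in eggs, where 28.1% of all genes were. The median log2 difference was 0.95 over the members and -0.04 over all genes, or 1.03 and 0.07 after scaling.

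The genes higher in eggs had means of 0.0300 to 2.31 TPM in 9-day females. even-skipped-like gene12048 was at 0 to 0.06 TPM in 9-day females (3.49 ± 0.105, adjusted p = 1.97e-29) and engrailed at 0.18 to 0.31 TPM (3.24 ± 0.112, adjusted p = 3.56e-27). empty spiracles gene7909, a head gap gene, was at 7.75, 9.42, 8.13 and 10.7 TPM in eggs and 0.23 to 0.46 TPM in 9-day females (2.90 ± 0.158, adjusted p = 2.43e-20). The Hox genes abdominal-A (2.72 ± 0.197), Sex combs reduced (2.25 ± 0.0839) and Antennapedia (2.13 ± 0.124) were higher in eggs, as were tinman (2.90 ± 0.114), Runt gene2777 (2.44 ± 0.154), paired (2.21 ± 0.165, and 1.85 without egg replicate 1), caupolican gene1728 (2.56 ± 0.196), orthopedia gene1910 (2.39 ± 0.146) and araucan (2.34 ± 0.107), with adjusted p of 1.72e-15 or less. araucan and caupolican are Iroquois genes of the notum, and orthopedia is a gene of the nervous system.

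The 8 genes higher in 9-day females were homeobox protein 4, homeobox protein 2-like, deformed-like, aristaless gene4566, gene7385, polyhomeotic-proximal gene3850, fushi tarazu and female sterile gene12210, with log2 fold changes of egg over female from -5.19 to -2.33. So fushi tarazu and even-skipped-like, both with pair-rule names and both at more than 10 TPM in eggs, were unlike in adult females, at 104 TPM and 0.0300 TPM. The comparison shares the 9-day female libraries with those of age and sex.

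**Figure D5:**
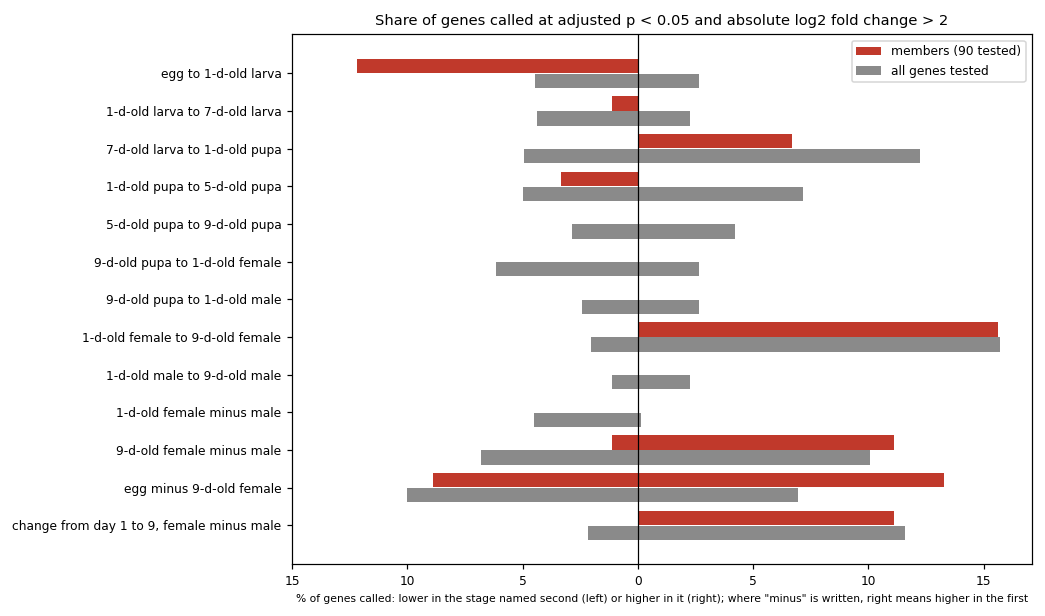
Share of genes called at an adjusted p under 0.05 and a log2 fold change beyond 2, for the 90 members tested (red) and all 17097 genes tested (grey), in 13 comparisons, with lower genes to the left and higher genes to the right. The members exceed all genes most clearly among falls at hatching (12.2% against 4.45%) and lie below them at pupariation (6.67% against 12.2%), an order that turns with a pseudocount of 0.1 (40.0% against 23.7%) and at any size of change (73.3% against 55.8%).

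The pathways around the members were read from lists of genes by product name. Of 8 gap genes 5 fell at hatching and 0 rose (median log2 difference -2.30), of 12 pair-rule genes 6 fell and 0 rose (-1.86), and of 21 segment polarity genes 6 fell and 0 rose (-1.36), beside 4.45% of all genes that fell. The lists overlap with the members: of the falls, 4 of the 6 pair-rule genes and 1 of the 6 segment polarity genes are members described above, and none of the 5 gap genes is. hunchback (gene9172), a gap gene that is also supplied by the mother, went from 11.96 ± 1.57 TPM (SD, n = 4) to 0.128 ± 0.0263 TPM (log2 fold change -3.51 ± 0.163, adjusted p = 3.18e-22). Krueppel (gene7144), a gap gene of the middle of the embryo, went from 15.7 ± 3.05 TPM to 1.41 ± 0.297 TPM (-2.79 ± 0.199, adjusted p = 5.17e-16). patched (gene4513), the Hedgehog receptor, went from 12.4 ± 1.89 TPM to 1.60 ± 0.271 TPM (-2.36 ± 0.109, adjusted p = 3.02e-22).

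In 9-day against 1-day females, 14 of 27 maternal patterning and germ plasm genes rose and 1 fell (median 2.09), and 11 of 25 Polycomb and Trithorax group genes rose and 3 fell (median 1.88), beside 15.7% and 2.02% of all genes. Of the gap genes 3 of 8 rose, of the pair-rule genes 3 of 12, of the segment polarity genes 4 of 21 and of the Hox complex list 2 of 12, with none falling. The Hox complex list goes by name and not by place on a chromosome. In the RefSeq order, the members on either side of the pair deformed-like and gene7385 were orthopedia gene8876 and LIM/Lhx1, which are not Hox genes. The pair-rule and Hox complex rises are all members, and the gap and segment polarity rises are not. Exuperantia (gene1934), which places bicoid RNA in the oocyte, went from 15.7 ± 1.43 TPM to 1407 ± 110 TPM (6.40 ± 0.332, adjusted p = 3.24e-21). vasa (gene11258), a germ line RNA helicase, went from 12.1 ± 1.11 TPM to 472 ± 28.6 TPM (5.18 ± 0.141, adjusted p = 3.61e-31). The gap gene tailless (gene7483) went from 0.0825 ± 0.0655 TPM to 87.8 ± 5.70 TPM (6.36 ± 0.102, adjusted p = 1.14e-39). Of the same maternal list, 11 were higher in 9-day females than in eggs and 3 higher in eggs, while of the pair-rule list 5 were higher in eggs and 2 in females.

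The order of members along the chromosomes was read from a RefSeq annotation, in which 82 of the 92 were found by symbol, and 10 pairs of members had no protein-coding gene between them. Among the members found, Abdominal-B, abdominal-A, Antennapedia and fushi tarazu followed each other with 1, 2 and 0 other genes between. Ultrabithorax and Sex combs reduced were not found by symbol, and whether either is among the genes between was not tested. Antennapedia and fushi tarazu, with none between, were at 0.923 and 104 TPM in 9-day females. E60-like (gene3705) and engrailed, also with none between, both had their highest mean in eggs, at 1.01 and 10.7 TPM. muscle-specific tinman and bagpipe (gene5088), a pair of visceral muscle genes, both had their highest mean in eggs too, at 7.13 and 1.09 TPM. The empty spiracles copies gene7910 and gene7909 differed, with their highest means in 9-day pupae (3.40 TPM) and in eggs (9.00 TPM).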

How the data were processed

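The authors trimmed the reads, aligned them with HISAT2 2.1.0, assembled new genes with StringTie and computed TPM per gene with RSEM 1.3.1, and the deposited table holds these TPM with no scaling between libraries. The genome build is not given in the sources used here, and read counts were not used here, so no counting interval is given. Every column of values was mapped to a sample. The 17097 genes that exceeded 0.1 TPM in 4 or more libraries were fitted with limma 3.58.1 in R 4.3.3 on log2(TPM + 1), with 1 mean for each of 13 stages over 52 libraries, a variance trend and robust moderation. P-values were adjusted by Benjamini-Hochberg over all genes tested in each of 13 comparisons. The fit was also run on simulated data with normal noise on the log scale, with changes put only into genes of high level in eggs and low spread. That run does not cover members at low TPM or values set by a single library. Members, roles and 6 gene lists were chosen with earlier results of these data known. Named genes are called members whose higher stage reached 1 TPM and whose libraries did not overlap, Hox complex genes, the 5 most abundant members of a stage and the 3 most abundant called genes of a list, or are said to be chosen after their values were seen, as were adjacent or like-named copies. Alternatives were a pseudocount of 0.1, no filter, median-of-ratios scaling over 6902 genes, a threshold of 1, a replicate block, the compared stages alone, a read-length term, leaving out the 6 libraries of lowest mapping rate and leaving out each library. Counts at any size of change were added after seeing the data. Neighbours come from RefSeq genes of assembly idZeuCucr1.2, used for order only. Figures were drawn with matplotlib 3.10.9.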

Additional observations from a re-analysis of the deposited data

Results flagged for a closer look

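Of 72 sets of 4 libraries whose values were tested for a single library far from the other 3, 11 had one. The limit used is passed in about 1 set in 20 by chance only where values are independent and normally distributed. These sets share libraries and include genes chosen after their values were seen, so that rate does not hold for them. In 1-day pupae, replicate 2 was high for Deformed (91.9 TPM) and for goosecoid-like (37.71 TPM), and replicate 1 was low for homeobox protein 5 gene6954 (38.48 TPM). In eggs, replicate 1 was high for paired (9.34 TPM) and replicate 2 for deformed-like (11.37 TPM). In 9-day females, Runt gene2774 was high in replicate 3 (10.97 TPM), gene7385 high in replicate 2 (21.55 TPM) and homeobox protein 2-like low in replicate 3 (217.3 TPM). abdominal-A was high in 5-day pupa replicate 1 (15.98 TPM), where the other 3 libraries were at 7.54, 5.98 and 6.49 TPM. The gene named for diencephalon/mesencephalon homeobox protein 1 (gene12449), chosen after its values were seen, was at 1.07, 0.89, 36.08 and 1.03 TPM in 5-day pupae and 3.57, 3.23, 2.47 and 14.21 TPM in 9-day males. The causes were not tested.

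The change from day 1 to day 9 differed between the sexes for 10 of 90 members (11.1%) by limma's interaction term, each with the larger log2 change in females. Of all genes tested 11.6% were called in that direction, so the count does not set the members apart. The differences (female minus male change) were 9.31 for homeobox protein 4, 6.78 for homeobox protein 2-like, 6.65 for fushi tarazu, 6.40 for deformed-like, 4.14 for polyhomeotic-proximal gene3850, 3.77 for gene7385, 3.45 for goosecoid-like, 2.97 for Runt gene2774, 2.79 for ocelliless and 2.32 for female sterile-like gene2578. After median-of-ratios scaling, ocelliless and gene2578 were at 1.99 and 1.47, below the size for a call.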

How the results depend on the processing

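No called result of a member changed direction under any alternative. Of 76 such results, 25 fell short of the call under median-of-ratios scaling and 11 without some library. With a read-length term 2 did so (ocelliless at hatching and SIX6 in females), and 2 with the compared stages fitted alone. The read-length term is set by the 7-day larvae alone and cannot test read length in eggs or adults. Scaling left 6 falls at hatching and 1 rise at pupariation. A pseudocount of 0.1 gave 24 calls at hatching, 13 in larval growth, 37 at pupariation, 7 and 2 in the pupa, 2 and 1 at eclosion of females and males, 1 between the sexes on day 1, 21 on day 9, 46 between egg and 9-day female, 18 for the change by sex, 16 for female age and 0 for male age. Beside the members' 26.7% falls at hatching, 14.4% in larval growth and 40.0% rises at pupariation stood 9.15%, 10.3% and 23.7% of all genes. A threshold of 1 gave, in the same order, 36, 12, 39, 21, 7, 9, 7, 2, 28, 55 and 27, with 22 for female and 7 for male age. Where no share of all genes stands beside a count of this kind, it shows only how the number of calls moved with the setting. It does not set the members apart from other genes. Without the 6 libraries of lowest mapping rate, which leaves the 9-day pupa 1 library assumed to vary like the rest, 1 member was called at eclosion of females. At any size of change (chosen after seeing the data) the counts were 79 at hatching, 53 in larval growth, 69 at pupariation, 49 from day 1 to day 5 of the pupa, 65 for female and 31 for male age, 9 between the sexes on day 1, 65 between the sexes on day 9 and 78 between egg and female. Leaving out 1 library gave 1 to 2 calls in larval growth (2 without 7-day larva replicate 2) and 1 to 3 from day 1 to day 5 of the pupa (1 without 1-day pupa replicate 2), with 8 to 12 at hatching and 5 to 9 at pupariation. A mean above 1 TPM was reached by 46, 36 and 27 members in 1-day, 3-day and 7-day larvae, 55 in 9-day pupae, 47, 47 and 46 in females and 49, 52 and 55 in males of 1, 5 and 9 d. Of described genes 69.6%, 66.1% and 63.8% did so in these larvae and 77.8% in 9-day pupae. In females 70.4%, 72.0% and 71.3% did, and in males 76.7%, 77.5% and 78.4%.

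With the replicate number as a block, 11 members were called at hatching, 14 for female age and 20 between egg and 9-day female, and no call was lost. Libraries with the same number did not deviate together (median r of -0.002 over 312 pairs, from -0.298 to 0.215, and 0.001 between unlike numbers), and 15 of 52 libraries correlated best with their own number. Because whole bodies were pooled and no counts were used, differences at low TPM carry an unknown counting error.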
